A study of Mus musculus with 9 samples.

Results

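Annexins are cytosolic proteins that bind acidic phospholipids when calcium rises, and the 9 annexin genes described here were taken by name from a table of 23337 genes counted in mouse liver. The members were chosen by symbol: the rule that lists Anxa1, Anxa2, Anxa3, Anxa4, Anxa5, Anxa6, Anxa7, Anxa11 and Anxa13 sets no threshold. They were, however, named when earlier results of these data were known, and the measured value seen beforehand was the low Anxa2 count in dHep livers against WT. That difference of Anxa2 is therefore given as a description with no test, and the other differences against WT concern genes picked from its family and are not independent evidence of a family pattern. The comparisons of Anxa2 between the libraries labelled KO and WT or dHep reuse the values seen beforehand. Their p values are printed as descriptions and are not independent evidence either. All 9 were found, and all 9 passed the filter on low counts with reads above its minimum in 3 of 3 libraries of every group. The table holds 12 annexin genes, and the other 3 (Anxa8, Anxa9 and Anxa10) had few reads and are set beside the members below.

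Poly(A) RNA was sequenced from the livers of 9 C57BL/6 mice, 3 in each of 3 groups, that ate a high-fat diet for 16 weeks from an age of 6 to 8 weeks. The groups are mice labelled as whole-body knockouts of protease-activated receptor 2 (KO, genotype PAR2 KO), mice labelled as lacking the receptor in hepatocytes (dHep, genotype PAR2dHep) and floxed mice with an intact receptor gene (WT, genotype PAR2fl/fl). The receptor is switched on when coagulation proteases and other serine proteases cut it, and the series title ties it to obesity, fatty liver and the hepatocyte factor HNF4A. The Cre driver and the sex of the mice are not given in the sources used here, and no group on a control diet was analysed here.

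Annexins share a folded core that docks on membranes through bound calcium, and each has its own N-terminal tail that sets its partners. They act in membrane repair, vesicle traffic and the handling of exposed phosphatidylserine, and in liver they are made by hepatocytes and by bile duct, endothelial, stellate and immune cells. In RNA of whole liver, a smaller number of cells of some type cannot be told apart from a lower RNA content of each such cell.

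The libraries held 18683660 to 30509242 reads assigned to genes, and hepatocyte markers summed to at least 94022.5 CPM (read counts scaled to the effective size of each library) in each. The targeted gene F2rl1 had 71, 103 and 76 reads in the libraries labelled KO, 2, 8 and 0 in dHep and 17, 27 and 28 in WT. Every dHep library thus had fewer F2rl1 reads than any WT library. The gene passed the low-count filter through WT and the libraries labelled KO alone, so no test of it is given for dHep. F2rl1 was higher in the libraries labelled KO than in WT (log2 fold change 2.22 ± 0.51 SE, edgeR adjusted p = 0.00735). The table has 1 count for the whole gene, so transcripts of a targeted allele can be included, and each direction given below for the libraries labelled KO rests on a label that these counts do not bear out. Transcripts of the pancreas or intestine stood out in 3 libraries, and those of muscle in others too. Pancreatic acinar markers summed to 1188 CPM in dHep replicate 2 and 319 CPM in WT replicate 1, against at most 4.50 CPM elsewhere. Skeletal muscle markers summed to 43.2 CPM in KO replicate 3 and 33.7 CPM in KO replicate 2, to 15.9 CPM in dHep replicate 1 and 502 CPM in dHep replicate 2, and to at most 5.35 CPM in WT and in the remaining libraries. The intestinal gene Sis, for sucrase-isomaltase, had 1620 reads in KO replicate 1 and 0 or 1 in every other library.

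The promoters of the annexins that differed most are shown before the values, beside that of Anxa11, which passed the test in no comparison. RefSeq promoter entries (GRCm38.p6, the build called mm10 in the file) matched 6 of the 9 members by symbol, with 8 start sites in all; Anxa3, Anxa6 and Anxa13 are named only. Each line gives the 250 bases before the annotated start, 5′ to 3′ on the strand of the gene, in lower case, with capitals for matches to the motifs searched.
Anxa2 (chr9:69453433-69453682, plus strand): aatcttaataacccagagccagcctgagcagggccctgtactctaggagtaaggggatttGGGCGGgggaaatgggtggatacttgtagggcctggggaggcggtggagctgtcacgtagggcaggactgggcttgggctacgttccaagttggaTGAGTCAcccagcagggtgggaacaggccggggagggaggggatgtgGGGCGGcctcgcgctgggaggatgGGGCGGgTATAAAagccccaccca
Anxa5 (chr3:36475888-36476137, minus strand): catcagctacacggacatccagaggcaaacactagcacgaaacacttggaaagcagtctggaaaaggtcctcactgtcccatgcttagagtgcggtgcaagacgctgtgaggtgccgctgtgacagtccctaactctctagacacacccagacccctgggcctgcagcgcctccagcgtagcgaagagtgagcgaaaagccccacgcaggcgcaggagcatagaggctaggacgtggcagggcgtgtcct
Anxa1 (chr19:20390672-20390921, minus strand): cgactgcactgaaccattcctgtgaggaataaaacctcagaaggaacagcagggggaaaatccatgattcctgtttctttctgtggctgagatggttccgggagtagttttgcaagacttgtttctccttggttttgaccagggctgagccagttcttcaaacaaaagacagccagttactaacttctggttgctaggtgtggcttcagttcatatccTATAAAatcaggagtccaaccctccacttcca
Anxa11 (chr14:25841905-25842154, plus strand): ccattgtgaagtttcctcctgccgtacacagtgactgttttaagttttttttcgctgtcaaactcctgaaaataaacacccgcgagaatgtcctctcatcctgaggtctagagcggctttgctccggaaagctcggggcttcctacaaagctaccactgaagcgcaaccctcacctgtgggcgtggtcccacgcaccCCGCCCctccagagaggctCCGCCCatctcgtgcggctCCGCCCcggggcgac
Each of 5 motifs was searched as letters on both strands. The AP-1 motif was spelled TGANTCA and the HNF4 motif CAAAGTCCA. For the GC box the letters were GGGCGG, for the CCAAT box they were as in its name, and for the TATA box TATAAA. In the windows printed, no match overlapped another. The Anxa2 window held an AP-1 match that starts 95 bases before the transcript start, 3 GC boxes and 1 TATA box. AP-1 letters were present in 6.75%, TATA letters in 12.4% and GC box letters in 32.7% of the 32851 promoter windows of all genes. Anxa1 had 1 TATA match, Anxa11 had 3 GC boxes on the opposite strand, and none of the 5 motifs was found in the Anxa5 window. HNF4 letters, held by 0.384% of all windows, were in none of the 8 member windows. These matches describe letters in a window and not bound sites.

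The comparison of dHep with WT asks how the liver differs when hepatocytes lack the receptor. Beside Anxa2, which is described without a test, 4 of the other 8 annexins fell in dHep livers (Anxa1, Anxa3, Anxa5 and Anxa7) and 0 rose at an edgeR adjusted p under 0.05, taken over all 13141 genes tested. By unadjusted p under 0.05, 1 annexin was higher (Anxa11), and DESeq2 and limma voom each called 4 of the 8 lower and 0 higher. Over all those genes 24.3% were called in this comparison, 11.9% lower and 12.4% higher, and 22.6% had all dHep libraries below all WT libraries (20.8% all above). The median log2 fold change was -0.32 over the 8 annexins and 0.02 over all genes.

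Anxa2, which pairs with S100A10 at the cell surface and there holds plasminogen and its activator, had 20.3, 18.4 and 21.0 CPM in dHep and 133, 170.4 and 185 CPM in WT. The groups lay far apart, with the highest dHep library well under the lowest WT library. Anxa2 was 8.18-fold lower in dHep (log2 fold change -3.03). This is the difference seen beforehand, so its size is a description only. The gene lies on the plus strand of chromosome 9, from position 69453683 to 69491785 (mm10).

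Anxa5, which coats membranes that expose phosphatidylserine and is used in the laboratory to stain dying cells, stood at 56.7, 61.6 and 61.6 CPM in dHep and 265, 294 and 362 CPM in WT. The dHep libraries were close to each other and all far below WT. The fall was 5.12-fold (log2 fold change -2.36 ± 0.20 SE, edgeR adjusted p = 0.000225). Anxa5 lies on the minus strand of chromosome 3, from 36448924 to 36475887.

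Anxa1, a glucocorticoid-induced protein that signals through formyl peptide receptors to restrain inflammation, had 4.29, 7.03 and 4.41 CPM in dHep and 12.9, 12.9 and 12.7 CPM in WT. Every dHep library was below every WT library, and dHep replicate 2, the library with pancreatic and muscle transcripts, was the highest of its group. The log2 fold change was -1.29 ± 0.23 (SE, edgeR adjusted p = 0.0046). Without WT replicate 1 and dHep replicate 2 Anxa1 still fell, by 1.56 on the log2 scale. Anxa3, known from the granules of neutrophils, had 4.23, 4.54 and 3.73 CPM in dHep and 7.63, 8.30 and 7.66 CPM in WT. The groups were apart, and the log2 fold change was -0.91 ± 0.19 (SE, edgeR adjusted p = 0.00883). Anxa1 maps to the minus strand of chromosome 19 (20373434 to 20390671) and Anxa3 to the plus strand of chromosome 5 (96793385 to 96845968).

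Anxa7, which joins membranes of secretory vesicles, had 93.7, 125 and 129.7 CPM in dHep and 148, 152 and 165 CPM in WT. The groups did not overlap, but dHep replicate 1 lay well below the other two. The log2 fold change of -0.42 ± 0.12 (SE) passed narrowly, with an edgeR adjusted p of 0.0371. That call ended without WT replicate 1, 2 or 3 (edgeR adjusted p = 0.0748, 0.0978 and 0.136), without KO replicate 1, 2 or 3 (0.0501, 0.0573 and 0.0606), with dHep and WT alone in the fit (0.0983), and with WT replicate 1 and dHep replicate 2 both left out (0.061). Anxa7 lies on the minus strand of chromosome 14, from 20455261 to 20480133.

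The remaining 4 members did not pass in dHep against WT. Anxa4, found in secretory and biliary epithelium, had 61.5, 76.4 and 70.9 CPM in dHep and 72.3, 80.2 and 79.9 CPM in WT, with overlap, and a 95% interval of the log2 fold change from -0.37 to 0.06. Anxa6, the largest annexin, which acts in the traffic of cholesterol between endosomes and the cell surface, had 111, 161 and 157 CPM in dHep and 144, 161 and 152 CPM in WT (interval -0.40 to 0.22). In Anxa6 it was again dHep replicate 1 that lay low, and without it the log2 fold change was 0.07 in place of -0.09. Anxa11, which tethers RNA granules to lysosomes, had 27.9, 42.4 and 40.0 CPM in dHep and 28.1, 27.8 and 28.7 CPM in WT. Only dHep replicate 1 stood at the WT level, the other two above it. Anxa11 missed the threshold (0.38 ± 0.16 SE, edgeR adjusted p = 0.105) and passed without dHep replicate 1 (0.55, edgeR adjusted p = 0.00905). Anxa13, an annexin of intestinal and renal epithelium, had 1.77, 1.93 and 1.18 CPM in dHep and 2.67, 1.82 and 1.25 CPM in WT, which overlapped (interval -1.43 to 0.98).

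**Figure D1:**
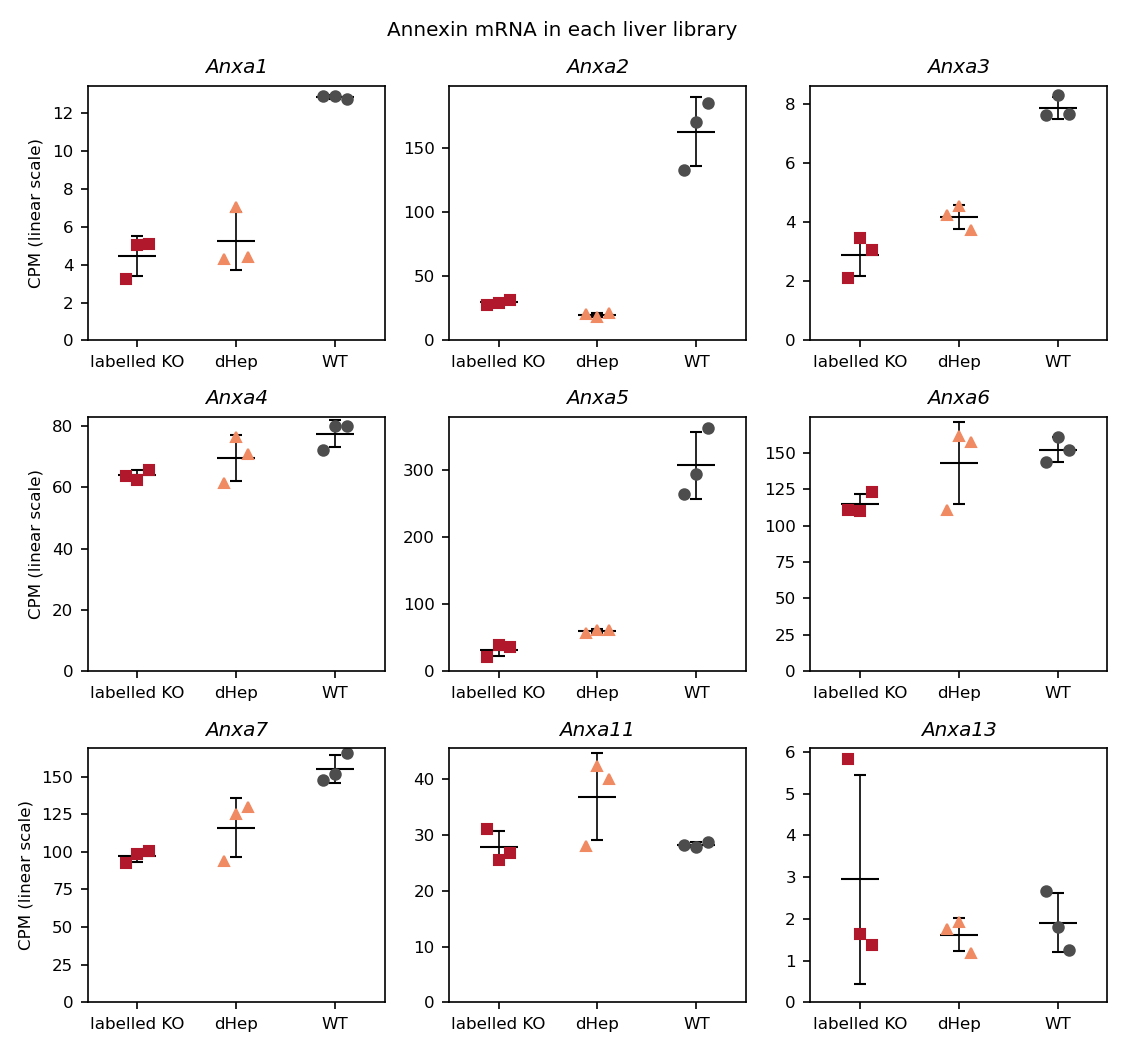
CPM (vertical axis, linear, from 0) of each annexin in the libraries labelled KO, dHep and WT, 1 point per library, with the group mean (horizontal line) and SD (bars, n = 3). Anxa1, Anxa2, Anxa3 and Anxa5 are lower in all 6 knockout-labelled libraries than in any WT library, while KO replicate 1 alone is high for Anxa13.

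The comparison of the libraries labelled KO with WT asks what loss of the receptor in every cell does, with the reservation on F2rl1 given above. In the libraries labelled KO 7 of the 9 annexins fell and 0 rose, and only Anxa11 and Anxa13 did not pass. Anxa2 is among the 7, and its WT values were among those seen beforehand. By unadjusted p under 0.05 also 0 rose, and DESeq2 and limma voom each called 7 lower and 0 higher. Over all genes 43.0% were called in this comparison, 22.1% lower and 20.9% higher, and 33.8% had all libraries labelled KO below all WT libraries (32.4% all above). The annexin median log2 fold change was -0.67, against -0.01 over all genes. Both comparisons use the same WT libraries, so a gene's 2 changes against WT are not separate evidence.

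Anxa5 had 22.1, 38.8 and 36.4 CPM in the libraries labelled KO and 265, 294 and 362 CPM in WT. Its fall was 9.47-fold (log2 fold change -3.24 ± 0.21 SE, edgeR adjusted p = 4.36e-05), and 115 of 13141 genes had a lower log2 fold change. Anxa2 had 27.9, 29.5 and 31.2 CPM in the libraries labelled KO and 133, 170.4 and 185 CPM in WT, a 5.51-fold fall (-2.46 ± 0.13 SE, edgeR adjusted p = 1.06e-05). For both genes the groups were far apart, and KO replicate 1 was the lowest library of its group.

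Anxa1 stood at 3.24, 5.06 and 5.08 CPM in the libraries labelled KO and 12.9, 12.9 and 12.7 CPM in WT (log2 fold change -1.53 ± 0.23 SE, edgeR adjusted p = 0.00106). Anxa3 stood at 2.11, 3.48 and 3.06 CPM in the libraries labelled KO and 7.63, 8.30 and 7.66 CPM in WT (-1.45 ± 0.19 SE, edgeR adjusted p = 0.000683). Again no library labelled KO reached the WT range for either gene. Anxa7 had 92.6, 98.6 and 100.4 CPM in the libraries labelled KO and 148, 152 and 165 CPM in WT (-0.67 ± 0.12 SE, edgeR adjusted p = 0.00273).

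The falls of Anxa6 and Anxa4 were small and close to the threshold. Anxa6 had 111, 110.2 and 123 CPM in the libraries labelled KO and 144, 161 and 152 CPM in WT, with no overlap (log2 fold change -0.41 ± 0.14 SE, edgeR adjusted p = 0.0393). Its call ended without WT replicate 1, 2 or 3 (edgeR adjusted p = 0.0661, 0.122 and 0.0957) and without KO replicate 1, 2 or 3 (0.103, 0.115 and 0.0648). With WT replicate 1 and dHep replicate 2 both left out it was 0.053. Anxa4 had 63.9, 62.3 and 65.6 CPM in the libraries labelled KO and 72.3, 80.2 and 79.9 CPM in WT, also without overlap (-0.28 ± 0.10 SE, edgeR adjusted p = 0.0444). Its call ended without WT replicate 1, 2 or 3 (edgeR adjusted p = 0.0587, 0.14 and 0.137), without KO replicate 1, 2 or 3 (0.0996, 0.123 and 0.0916), with the replicate number as a block (0.0562), with median-of-ratios size factors (0.0519) and with no low-count filter (0.0562). Anxa6 lies on the minus strand of chromosome 11 (54978962 to 55033471) and Anxa4 on the minus strand of chromosome 6 (86736840 to 86793584).

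Anxa11 had 31.0, 25.5 and 26.7 CPM in the libraries labelled KO and 28.1, 27.8 and 28.7 CPM in WT. Its groups overlapped (log2 fold change -0.02 ± 0.16 SE, 95% interval -0.37 to 0.33), and the gene lies on the plus strand of chromosome 14, from 25842155 to 25886804. Anxa13 had 5.82, 1.63 and 1.39 CPM in the libraries labelled KO and 2.67, 1.82 and 1.25 CPM in WT. The high value came from KO replicate 1, with 124 reads against 36 and 24 in the other two libraries of the group. In that library the intestinal genes Sis (76.1 CPM), Vil1 (39.3 CPM) and Cdx2 (1.46 CPM) were high. Elsewhere Sis and Cdx2 were at or near 0 and Vil1 at most 1.28 CPM. The whole intestinal list (7 genes) summed to 378 CPM there, 182 CPM in KO replicate 2 and 202 CPM in KO replicate 3. Its sum was 157 to 274 CPM in dHep and 234 to 316 CPM in WT. It thus set KO replicate 1 much less apart than the named genes did. The log2 fold change of Anxa13 was 0.63 ± 0.53 (SE, edgeR adjusted p = 0.356), and without KO replicate 1 it was -0.32. Anxa13 lies on the minus strand of chromosome 15, from 58341464 to 58389274.

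**Figure D2:**
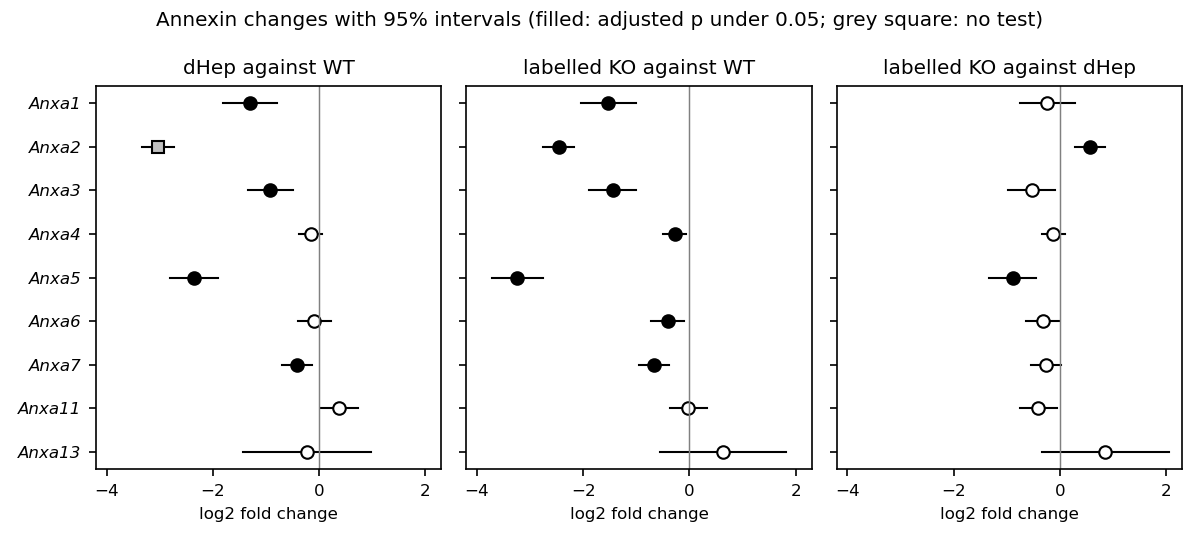
Log2 fold change (horizontal axis) of each annexin with its 95% interval in dHep against WT, the libraries labelled KO against WT and the libraries labelled KO against dHep, filled where the edgeR adjusted p is under 0.05, with a grey square for Anxa2 in dHep against WT, which is given no test. Anxa2 and Anxa5 sit furthest left against WT, at -3.03 and -2.36 for dHep and at -2.46 and -3.24 for the libraries labelled KO. They sit on opposite sides of 0 in the third panel. Any interval at the grey square is a description as well.

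The libraries labelled KO were also set directly against dHep, which tests whether the 2 knockout groups differ. Anxa2 was higher and Anxa5 lower in the libraries labelled KO, so that 2 of 9 annexins were called, beside 9.62% of all genes (5.39% lower and 4.23% higher). The Anxa2 call reuses the low dHep values seen when the gene was picked, a choice that favoured a higher level in the other group. It is a description. All libraries labelled KO lay below all dHep libraries in 12.7% of genes and above them in 13.9%. The median log2 fold change was -0.26 over the annexins and -0.02 over all genes.

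Anxa2 had 27.9, 29.5 and 31.2 CPM in the libraries labelled KO and 20.3, 18.4 and 21.0 CPM in dHep, with no overlap (log2 fold change 0.57 ± 0.13 SE, edgeR adjusted p = 0.0261). Anxa5 had 22.1, 38.8 and 36.4 CPM in the libraries labelled KO and 56.7, 61.6 and 61.6 CPM in dHep, again with no overlap (-0.89 ± 0.20 SE, edgeR adjusted p = 0.0261). Neither call held throughout. Anxa2 lost it without WT replicate 2 (edgeR adjusted p = 0.0524), dHep replicate 2 (0.0713), KO replicate 2 (0.0803) or KO replicate 3 (0.097), with limma voom (adjusted p = 0.101) and with WT left out of the fit (0.0544). Anxa5 lost it without WT replicate 2 (edgeR adjusted p = 0.0507), dHep replicate 2 (0.059) or KO replicate 3 (0.0678), with limma voom (adjusted p = 0.0751), with WT left out of the fit (0.0646) and with WT replicate 1 and dHep replicate 2 both left out (0.078). Without WT replicate 1, dHep replicate 2 and KO replicate 1 together, Anxa2 had a log2 fold change of 0.55 (edgeR adjusted p = 0.0534) and Anxa5 of -0.66 (edgeR adjusted p = 0.0598).

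Per length, the ratio of Anxa2 to Anxa5 was 1.59, 0.953 and 1.07 in the libraries labelled KO, 0.449, 0.374 and 0.428 in dHep and 0.629, 0.727 and 0.641 in WT. The 3 groups did not overlap, with dHep lowest and the libraries labelled KO highest. This ratio was formed after the values were seen and is a description, and with 3 libraries against 3 no two-sided exact permutation p can go below 0.1.

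The other 7 annexins did not pass between the knockout groups. Anxa3 had 2.11, 3.48 and 3.06 CPM in the libraries labelled KO and 4.23, 4.54 and 3.73 CPM in dHep, apart but with an edgeR adjusted p of 0.114. Anxa1 overlapped, with a 95% interval of its log2 fold change from -0.75 to 0.28. Without dHep replicate 1, in which Anxa6, Anxa7 and Anxa11 were low, those 3 genes passed as well, lower in the libraries labelled KO (log2 fold changes -0.48, -0.39 and -0.57, edgeR adjusted p = 0.0133, 0.0233 and 0.0148). Anxa13 had a log2 fold change of 0.86 with KO replicate 1 and of -0.10 without it.

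Levels of different annexins were compared as CPM per kilobase of exon. In WT the order was Anxa5 (178 ± 29.0, SD, n = 3), Anxa2 (118 ± 19.6), Anxa6 (57.2 ± 3.16), Anxa7 (52.3 ± 3.09), Anxa4 (38.7 ± 2.22), Anxa11 (11.8 ± 0.183), Anxa1 (9.21 ± 0.0759), Anxa3 (4.92 ± 0.237) and Anxa13 (1.54 ± 0.577). Anxa6 and Anxa7 were the only neighbours in that order whose libraries overlapped. In the libraries labelled KO Anxa6 led (43.0 ± 2.68 CPM per kilobase), Anxa2 (21.5 ± 1.19) and Anxa5 (18.8 ± 5.26) came next after Anxa7 and Anxa4 and overlapped, and Anxa7 overlapped with Anxa4, Anxa5 with Anxa11, Anxa1 with Anxa13 and Anxa13 with Anxa3. In dHep Anxa6 also led (53.8 ± 10.6 CPM per kilobase), Anxa5 (34.8 ± 1.64) was in the third place and Anxa2 (14.5 ± 0.994) in the sixth. There the places from Anxa6 to Anxa4 overlapped one with the next, as did Anxa11 with Anxa2.

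Summed over the 9 annexins, the length-scaled level was 159 to 174 CPM per kilobase in the libraries labelled KO, 170.4 to 217 in dHep and 418 to 525 in WT. Anxa5 made up 8.05% to 13.4% of that sum in the libraries labelled KO, 16.5% to 19.3% in dHep and 36.0% to 40.1% in WT. Anxa2 made up 12.9% ± 0.132 (SD, n = 3) in the libraries labelled KO, 6.16% to 8.67% in dHep and 23.1% to 26.2% in WT. Anxa6 was the largest share outside WT, at 24.7% to 26.4% in the libraries labelled KO and 24.4% to 27.9% in dHep, against 10.9% to 12.9% in WT. The family in WT liver was thus mostly Anxa5 and Anxa2, and in the libraries labelled KO mostly Anxa6, Anxa7 and Anxa4. In dHep Anxa6 was followed by Anxa7, Anxa5 and Anxa4, in an order that differed between libraries. The Anxa5 share was above that of Anxa4 in dHep replicates 1 and 3 and below it in dHep replicate 2. In dHep replicate 1 it was also above that of Anxa7.

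**Figure D3:**
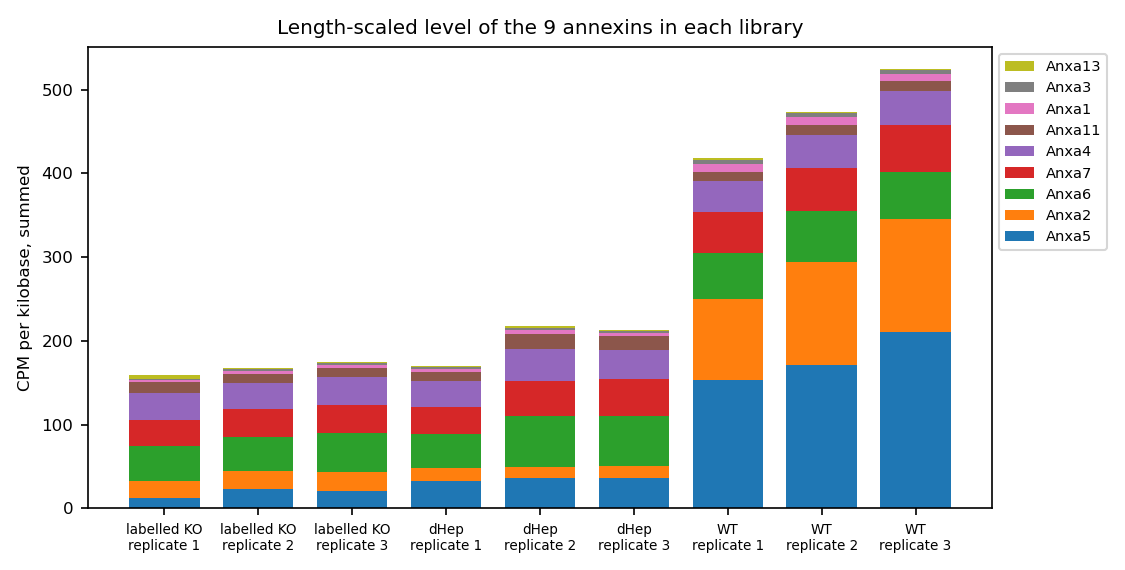
Length-scaled level (CPM per kilobase, stacked, from 0) of the 9 annexins in each library. The WT bars reach 418 to 525 and the others at most 217, and the Anxa5 and Anxa2 blocks are the ones that differ most in height.

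The annexins outside the 9 were scarce. Anxa8 had 6, 9 and 2 reads in the libraries labelled KO, 20, 30 and 53 in dHep and 25, 12 and 28 in WT. It passed the low-count filter through dHep and WT alone, so no test of it is given. Anxa9 had 20, 24 and 20 reads in the libraries labelled KO, 32, 32 and 18 in dHep and 43, 53 and 35 in WT, and passed in no comparison. Anxa10, an annexin of stomach epithelium, was too scarce to be tested, with 6 reads in KO replicate 1, 6 in dHep replicate 2, 2 in WT replicate 1 and 0 in the other 6 libraries. Those 3 are the libraries with intestinal or pancreatic transcripts.

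The partners of annexins were taken from lists of textbook members. Each count below stands beside 22.1% of all genes lower and 20.9% higher in the libraries labelled KO against WT, and 11.9% lower and 12.4% higher in dHep against WT. Of 12 S100 and EF-hand partner genes, 6 fell in the libraries labelled KO against WT and 3 in dHep against WT, and none rose by edgeR (1 in each at an unadjusted p under 0.05). By limma voom 2 rose in the libraries labelled KO and 0 in dHep, and by DESeq2 0 in both. The count that fell in the libraries labelled KO was 3 without WT replicate 2, WT replicate 3, KO replicate 1 or KO replicate 2, and that in dHep was 1 without WT replicate 2 or WT replicate 3. Their median log2 fold changes were -0.58 for the libraries labelled KO and 0.13 for dHep. S100a11, which binds the tail of annexin A1, had 5.61, 7.07 and 6.13 CPM in dHep and 25.9, 28.7 and 34.8 CPM in WT (log2 fold change -2.25 ± 0.24 SE, edgeR adjusted p = 0.000639). It also fell in the libraries labelled KO (-1.78 ± 0.24 SE, edgeR adjusted p = 0.000694). S100a10, the partner of annexin A2, had 105, 26.2 and 85.4 CPM in dHep and 198, 206 and 238 CPM in WT, a fall of 1.57 on the log2 scale (edgeR adjusted p = 0.0195, or 0.0561 and 0.0701 without WT replicate 2 or 3). In the libraries labelled KO S100a10 had 115, 149 and 143 CPM and did not pass against WT (-0.66 ± 0.39 SE, edgeR adjusted p = 0.191). Per length, Anxa2 stood at 0.0935 to 0.115 of S100a10 in the libraries labelled KO, 0.0912, 0.332 and 0.117 in dHep, and 0.317 to 0.392 in WT. The dHep library with the high ratio is replicate 2, in which S100a10 was low. Ahnak, a large scaffold that binds the complex of both, and S100a8, a neutrophil and monocyte alarmin, fell in the libraries labelled KO against WT (-0.52 and -1.92, edgeR adjusted p = 0.00768 and 0.0103) and did not pass in dHep.

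Genes of plasmin generation at the cell surface split by direction. In dHep against WT 2 of 5 tested fell (Plat and Plau) and 2 rose (Plg and Serpinf2), and in the libraries labelled KO against WT Plat and Plau fell and Plg and Serpinf2 rose. Plaur, the urokinase receptor, passed in neither (log2 fold changes -0.76 and -0.74). Plau, the urokinase activator, had 1.74, 2.29 and 2.06 CPM in dHep and 5.71, 5.59 and 5.63 CPM in WT (log2 fold change -1.48 ± 0.19 SE, edgeR adjusted p = 0.00115). Plg, the plasminogen made by hepatocytes, averaged 2481 CPM in dHep and 1667 CPM in WT (0.57 ± 0.18 SE, edgeR adjusted p = 0.0474). That call was lost in 13 of 18 alternatives, among them each left-out library but dHep replicate 1 (highest edgeR adjusted p = 0.156). Plg rose by 0.81 on the log2 scale in the libraries labelled KO, and this call held in all 18. Serpinf2, the plasmin inhibitor, rose by 1.05 on the log2 scale in the libraries labelled KO and by 0.78 in dHep, and the tissue activator Plat fell (-1.87 and -2.02). The median log2 fold change of the list was -0.74 for the libraries labelled KO and -0.76 for dHep.

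Of the annexin A1 receptors and eicosanoid enzymes, 5 of 8 could be tested. In dHep against WT 0 passed by edgeR, DESeq2 or limma voom, and 0 at an unadjusted edgeR p under 0.05, with a median log2 fold change of -0.46. Without WT replicate 1, dHep replicate 2 and KO replicate 1, 2 of them fell there. In the libraries labelled KO 3 fell (median -1.08): the formyl peptide receptor Fpr1 (-1.47), the phospholipase Pla2g4a (-2.40) and the cyclooxygenase Ptgs1 (-1.08). Fpr2 had 0.591 CPM on average in the libraries labelled KO, 0.649 in dHep and 0.879 in WT. For membrane repair, 4 of 9 genes fell against WT in each knockout group. The count was 2 in the libraries labelled KO without any 1 of the WT libraries or of the libraries labelled KO. Smpd1, the acid sphingomyelinase, rose in the libraries labelled KO (0.37), a call lost without any 1 library of either group but KO replicate 1, and none rose in dHep by edgeR, against 1 by DESeq2, 0 by limma voom and 1 at an unadjusted edgeR p under 0.05. The list medians were -0.17 for the libraries labelled KO and -0.19 for dHep. Myof, a ferlin of the plasma membrane, fell in dHep (-1.94) and among the libraries labelled KO (-2.55) in all 18 alternatives, and the difference between these groups did not pass (edgeR adjusted p = 0.293). The calpain genes Capn1 (-0.47 in each) and Capn2 (-0.73 in dHep, -0.41 among the libraries labelled KO) fell as well. The Capn2 call among the libraries labelled KO was lost without any 1 library of either group (edgeR adjusted p up to 0.109), and the Capn1 call in dHep without WT replicate 3 (0.0529). The calpain regulatory subunit Capns1 fell in dHep against WT (-0.69) in all 18 alternatives. Capns1 did not pass in the libraries labelled KO against WT (-0.17, edgeR adjusted p = 0.256). It was higher in them than in dHep (0.52, edgeR adjusted p = 0.0243), a call lost in 5 of 18 alternatives. Of 9 genes listed under recognition of phosphatidylserine, the lipid annexin A5 binds, 4 fell in each comparison with WT. In both, 0 rose by edgeR, DESeq2 or limma voom or at an unadjusted edgeR p under 0.05. The dHep count of 4 was 0 without WT replicate 3, 1 without WT replicate 2, and 2 without WT replicate 1, dHep replicate 3 or any 1 of the libraries labelled KO, or with dHep and WT alone fitted. The count in the libraries labelled KO was 3 to 5 with 1 library left out. The list medians were -0.69 for the libraries labelled KO and -0.50 for dHep. The receptor Axl was 4.28-fold lower in the libraries labelled KO and fell by 1.01 on the log2 scale in dHep (edgeR adjusted p = 0.0172, or 0.0655, 0.0551 and 0.0521 without WT replicate 2, WT replicate 3 or dHep replicate 3). Its ligand Gas6 fell by 1.32 and 1.10 on the log2 scale, and the bridging protein Mfge8 by 0.89 and 0.80. Without WT replicate 3 the Gas6 call in dHep was lost (edgeR adjusted p = 0.0517). The Mfge8 calls were lost in 5 of 18 alternatives in the libraries labelled KO and in 12 of 18 in dHep, with edgeR adjusted p up to 0.0817 and 0.149. The receptor Mertk passed against WT in the libraries labelled KO (-0.85) and not in dHep (-0.26), and its difference between the knockout groups missed the threshold (-0.60, edgeR adjusted p = 0.0509).

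**Figure D4:**
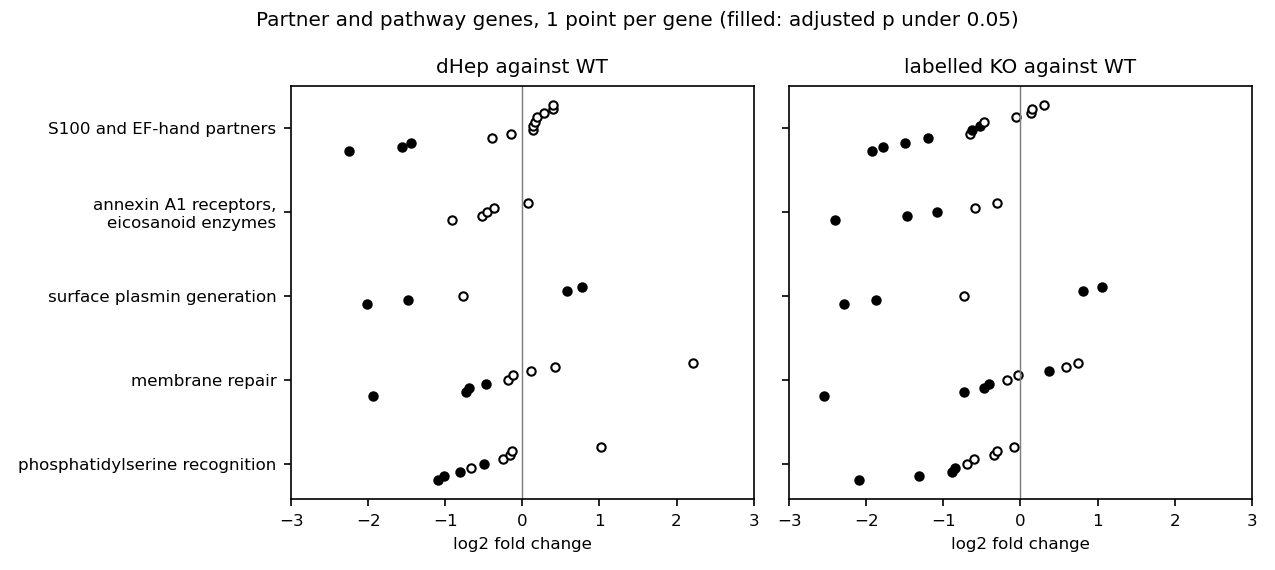
Log2 fold change (horizontal axis) of each tested partner or pathway gene against WT, 1 point per gene and 1 row per list, filled where the edgeR adjusted p is under 0.05. The plasmin list has filled points on both sides of 0, and the filled point furthest to the left is Myof (-2.55) in the libraries labelled KO.

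Markers of some other cell types moved with the annexins and those of others did not. The part of cell types in these differences was not tested. The counts of called genes below stand beside 22.1% of all genes lower and 20.9% higher in the libraries labelled KO against WT. In dHep against WT these shares were 11.9% lower and 12.4% higher. Lipid-associated macrophage and monocyte markers (8 listed, 7 tested) fell in 7 genes in the libraries labelled KO and in 6 in dHep. Their summed level was 43.1 to 81.8 CPM in the libraries labelled KO, 54.9 to 95.4 CPM in dHep and 175 to 201 CPM in WT. Stellate cell and fibroblast markers summed to 257 to 348 CPM in the libraries labelled KO, 333 to 496 CPM in dHep and 595 to 669 CPM in WT, with 6 and 3 of 8 genes lower against WT. Endothelial markers summed to 125 to 176 CPM in the libraries labelled KO, 167 to 239 CPM in dHep and 262 to 287 CPM in WT, with 5 and 3 of 6 genes lower. Kupffer cell markers summed to 66.9 to 134 CPM in the libraries labelled KO, 177 to 321 CPM in dHep and 264 to 361 CPM in WT, with 2 and 1 of 5 genes lower against WT. The dHep libraries overlapped WT in that sum, and the libraries labelled KO did not. No hepatocyte marker was called lower, with 2 of 6 tested genes higher in the libraries labelled KO and 3 of 6 in dHep. The neutrophil list summed to 3.12 to 3.35 CPM in the libraries labelled KO, 5.89 to 12.3 CPM in dHep and 6.35 to 10.5 CPM in WT. In the libraries labelled KO its 4 tested genes were called lower than in WT, and in dHep 0 of 4 passed. Of these, Retnlg had 1, 0 and 2 reads in the libraries labelled KO and 14, 25 and 12 in WT. It passed the low-count filter through WT and dHep libraries alone, so its call is a description. The S100a9 call (edgeR adjusted p = 0.0449) was lost in 8 of 18 alternatives, and the S100a8 call in 0. The sum of cholangiocyte markers was mostly Spp1, which is not specific to bile ducts, so it is not set beside the annexins. Lists of T and NK cells, of B cells and of mesothelial cells summed to at most 9.36 CPM in any library. Their sums were, in that order, 4.52 to 5.24, 4.24 to 5.48 and 1.24 to 2.93 CPM in WT. In dHep they were 4.11 to 6.77, 4.46 to 9.36 and 3.06 to 8.39 CPM. Among the libraries labelled KO they were 5.34 to 6.39, 1.62 to 3.21 and 2.94 to 3.90 CPM. Kidney markers summed to at most 0.0402 CPM in any library.

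**Figure D5:**
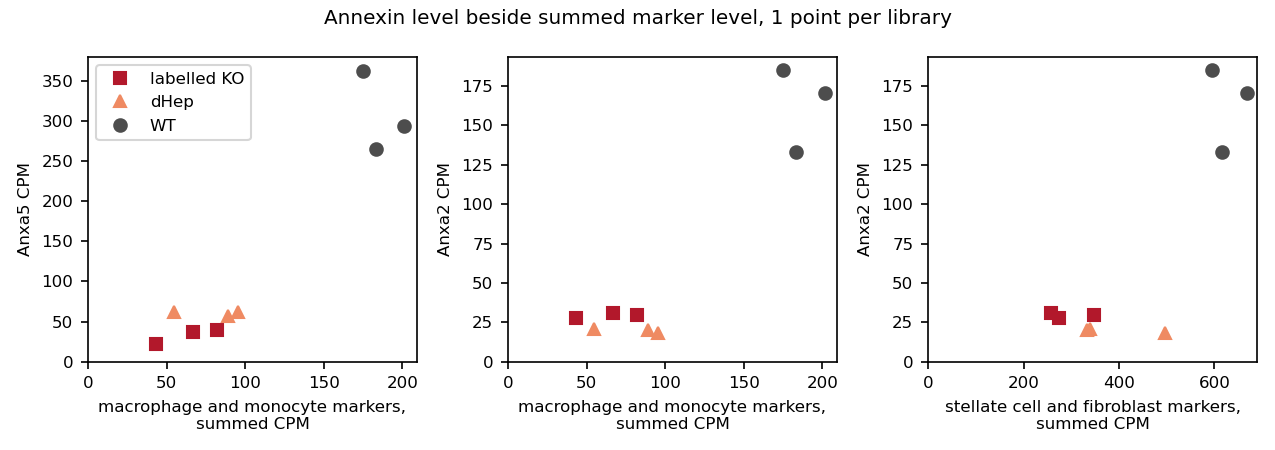
CPM of Anxa5 and Anxa2 (vertical axes) against the summed CPM of macrophage and monocyte or stellate and fibroblast markers (horizontal axes), 1 point per library. The 3 WT libraries stand apart at the upper right of each panel, and among the other 6 Anxa5 is lower in the libraries labelled KO than in dHep.

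The gene with the widest range among annexins of at least 10 CPM was Anxa5, which spanned 4.01 on the log2 scale over the 9 libraries (Anxa2 spanned 3.30). Of 11832 other genes with at least 1 CPM on average, the 6 with the highest Pearson r to Anxa5 over the 9 libraries were Incenp (0.992), Med22 (0.991), Rap2b (0.99), Clca1 (0.988), Plau (0.987) and Cd180 (0.985). The 9 libraries fall into 3 groups whose means lie far apart for Anxa5, and each library's depth and scaling enter both genes of a pair. Taken as deviations from the group means, r was 0.678, 0.775, 0.789, 0.789, 0.494 and 0.574 for the same genes in that order. Among the annexins themselves r with Anxa5 was 0.921 for Anxa7, 0.891 for Anxa2, 0.80 for Anxa4, 0.671 for Anxa6 and -0.153 for Anxa11. As deviations from the group means, these were 0.449, 0.552, 0.251, 0.254 and -0.206 in that order. By r over the 9 libraries the same annexins ranked 371, 638, 1424, 2500 and 6435 among the 11832 genes. Many genes outside the family thus followed Anxa5 more closely.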

How the data were processed

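The members and gene lists were chosen with earlier results of these data known. The submitters' processing notes name HISAT2 2.1.0 and the mm10 build, and per the file headers featureCounts 1.6.2 counted reads per gene with the reverse-strand setting (2), no multi-mapping and no reads over 2 genes. The deposited table holds raw counts, which were used as deposited. Every value column was matched to a sample by its label.

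Genes were kept by filterByExpr (minimum count 10, total 15), and 13141 remained. The test was the quasi-likelihood F test of edgeR 4.0.16 (under R 4.3.3), fitted to the 9 libraries together with TMM factors (0.883 to 1.10) and a mean per group. Adjusted p values are Benjamini-Hochberg over all genes tested, and a gene was called at under 0.05. SE is the log2 fold change over the square root of F, and 95% intervals use the moderated degrees of freedom. CPM uses TMM-scaled library sizes, and CPM per kilobase divides by the exon length in the table. Likeness used log2 of CPM plus 0.5. The test was tried on simulated data. Alternatives used DESeq2 1.42.0, limma 3.58.1, other filters and scalings, a replicate block and left-out libraries. Named genes were the members, and up to 4 called genes per partner list with the lowest p against WT, with Plaur, Fpr2 and Smpd1 added after their values were seen. The plasmin list leaves out 1 gene, which is not reported here. Depth of 18683660 to 30509242 reads limits precision for genes of few reads. The design text gives 3 separate mice per group. Replicates of a group differed by more than sampling noise (chi-square per degree of freedom at least 9.77).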

Additional observations from a re-analysis of the deposited data

How the results depend on the processing

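Calls against WT of Anxa1, Anxa3 and Anxa5 in both knockout groups, and of Anxa7 in the libraries labelled KO, held under all 18 alternatives. The Anxa2 call in the libraries labelled KO held as well, but it reuses WT values seen beforehand and is a description. The count of annexins called ran from 4 to 6 in dHep against WT (3 to 5 without Anxa2, which is a description there) and from 5 to 7 in the libraries labelled KO against WT when 1 library was left out, and from 0 to 5 between the knockout groups. Between the knockout groups it was 0 with limma voom, 0 with only those groups fitted, 1 without WT replicate 1 and dHep replicate 2 together, and 0 without those and KO replicate 1, an alternative chosen after seeing the data, which left 5 called in the libraries labelled KO and 4 in dHep against WT. Over all genes, leaving out 1 library gave 1359 to 4025 calls in dHep against WT, 3835 to 6547 in the libraries labelled KO against WT and 386 to 2809 between the knockout groups. That last count, 1264 as reported, was 2068 with DESeq2, 802 with limma voom, 342 with only the 2 groups, 495 without WT replicate 1 and dHep replicate 2, and 550 without the 3 libraries. The cause was not tested.

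Directions that turned were all of uncalled genes. Anxa1 between the knockout groups ran from -0.363 to 0.0342 when 1 library was left out (above 0 without dHep replicate 2), and was 0.0345 without WT replicate 1 and dHep replicate 2, and 0.218 without the 3 libraries. Anxa11 in the libraries labelled KO against WT ran from -0.0917 to 0.0345 (above 0 without KO replicate 2 or 3, 0.0043 in the last). Anxa13 in dHep against WT ran from -0.458 to 0.0908 (above 0 without WT replicate 1) and was 0.00997 without the 3 libraries. With KO replicate 1 left out Anxa13 was lowest, in a range of -0.10 to 1.19 between the knockout groups and of -0.32 to 0.963 against WT. Anxa6 in dHep against WT ran from -0.182 to 0.067 (above 0 without dHep replicate 1).

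Same-numbered libraries did not deviate together (r of deviations from group means -0.185 to 0.0426), and the replicate block left 5 (Anxa2 included), 6 and 2 annexins called in dHep against WT, KO against WT and between the knockout groups. Genes of few reads, Anxa13 first, have wide intervals.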
